A study of Homo sapiens with 4 samples.

Results

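RNA levels of 10 genes of the cortical and microvillar actin cytoskeleton were read from RNA sequencing of HT-29 cells, a human colorectal adenocarcinoma line used as a model of colonic epithelium. The genes were chosen by symbol and comprised the ERM genes EZR, RDX and MSN and the brush border genes VIL1, ESPN, MYO1A, CDHR2, CDHR5, USH1C and PLS1. They had 25 RefSeq transcripts among 63714, which were summed to 10 of 27685 genes. The cells carried either a control vector (Mock) or Myc-TRIM40, which encodes the ubiquitin ligase TRIM40 with an N-terminal Myc tag. All were otherwise wild-type HT-29 cells grown in the same medium. The study's methods describe viral transduction and puromycin selection of transduced cells, and no further treatment is stated. Expression was stable, with no statement in the sources used here of whether a line was 1 clone or a pool. Each condition was sequenced in 2 independent experiments, giving 4 libraries, here called control 1, Myc-TRIM40 1, control 2 and Myc-TRIM40 2.

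ERM proteins link actin filaments to the plasma membrane. They are held folded and inactive until they bind membrane phosphoinositide and are phosphorylated on a conserved threonine near the C-terminus by kinases that include ROCK, LOK and SLK. Ezrin is the main ERM protein of intestinal microvilli, where filaments are bundled by villin, espin and the plastin PLS1, tied to the membrane by ezrin and the motor MYO1A, and held in register by tip links of the cadherins CDHR2 and CDHR5, whose tails bind the scaffold USH1C. The study asked how TRIM40 affects the actin cytoskeleton through ROCK1 and ERM phosphorylation, and the sequencing reads only the RNA of these genes, not their phosphorylation or protein.

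The sequence around the regulatory threonine codon is shown for the 3 ERM genes, because it is the stretch through which ROCK signalling reaches them and because closely similar genes can share reads. The sequences are from the GENCODE transcripts on GRCh38, whereas the deposited positions further on are on hg19. The threonine codon is in capitals, and it is codon 567 of EZR, codon 564 of RDX and codon 558 of MSN, counted from the start codon. The stretches of 51 bases lie in the last coding exon, at chr6:158766950-158767000 on the minus strand for EZR (exon 14 of 14), chr11:110231905-110231955 on the minus strand for RDX (exon 14 of 14) and chrX:65739807-65739857 on the plus strand for MSN (exon 13 of 13).
EZR: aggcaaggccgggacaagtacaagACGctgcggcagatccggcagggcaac
RDX: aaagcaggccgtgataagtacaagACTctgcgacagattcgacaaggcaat
MSN: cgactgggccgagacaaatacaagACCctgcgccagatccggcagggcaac

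Within these stretches EZR and MSN differed at 8 bases, EZR and RDX at 12, and RDX and MSN at 14. Over the whole coding sequences the longest run of identical bases was 32 for EZR and MSN, 19 for EZR and RDX and 20 for RDX and MSN. No window of 50 bases was shared by any pair (0 of the 1709 windows of EZR in either other gene, and 0 of the 1700 windows of RDX in MSN), so reads of that length or more carry bases that tell the 3 coding sequences apart.

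TRIM40 had 0 reads in both control libraries, 272646 reads in Myc-TRIM40 1 and 110665 reads in Myc-TRIM40 2, as labelled. Library totals were between 60954602 and 67424698 reads. All 8 epithelial markers looked at had a mean of at least 1 FPKM (reads scaled by transcript length and by library size, a level per length), with a summed level of 7073 to 9869 FPKM. KRT8 and KRT18 made up most of that sum, with means of 3886 and 2958 FPKM, and CDX2 was the lowest at 1.28. Of 9 markers of leukocytes, endothelium and fibroblasts, 3 (CD3E, COL1A2 and COL3A1) had 0 reads in every library, and 1 (CD68) had a mean of at least 1 FPKM. The sum of all 9 was 7.69 FPKM in control 1, 13.0 in Myc-TRIM40 1, 6.24 in control 2 and 7.67 in Myc-TRIM40 2. CD68 made up most of each sum, at 6.99, 11.9, 5.86 and 7.17 FPKM in the same order. Control 2 stood apart from the other libraries by transcript length. Relative to control 1, its normalized reads were higher for genes under 1 kb (median log2 difference 0.58) and lower for genes over 6 kb (-0.73), while Myc-TRIM40 2 relative to Myc-TRIM40 1 gave medians of 0.06 and -0.28 for the same classes. Ratios are therefore also given for experiment 1, which does not use control 2. In these bulk libraries fewer cells that express a gene and less RNA per cell cannot be told apart.

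The 10 genes covered levels from near 0 to over 100 FPKM. MSN and EZR were the most abundant, with mean levels over the 4 libraries of 135.3 and 135.0 FPKM. VIL1 (66.0), USH1C (53.9) and PLS1 (29.3) followed, then CDHR5 (7.53) and RDX (7.42), and the lowest were ESPN (0.621), MYO1A (0.125) and CDHR2 (0.0237). Neighbours in this order did not separate in every case. The ranges over libraries overlapped for MSN and EZR (MSN higher in 2 of 4 libraries), for VIL1 and USH1C (VIL1 higher in 3 of 4), for CDHR5 and RDX (CDHR5 higher in 2 of 4), and for MYO1A and CDHR2, although MYO1A was the higher in 4 of 4. The other neighbouring pairs did not overlap. The brush border genes thus fell into an abundant set (villin, USH1C, PLS1), an intermediate one (CDHR5) and a scarce one (espin, MYO1A and CDHR2, all below 1 FPKM in every library), and the tip-link partners CDHR5 and CDHR2 were at very unequal levels.

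**Figure D1:**
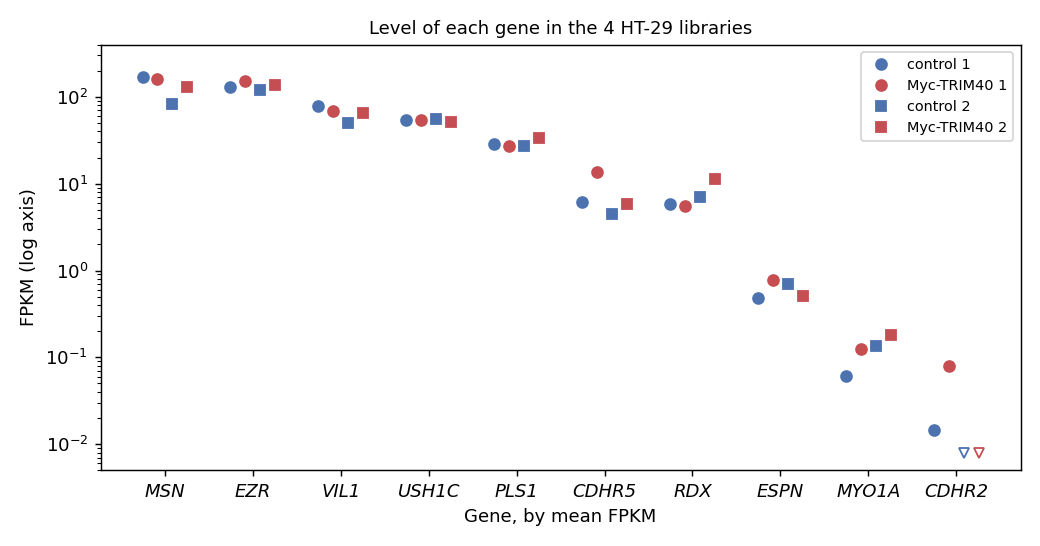
Level of each of the 10 genes (FPKM, log axis) in the 4 libraries, ordered by mean level. Blue points are control and red points Myc-TRIM40 libraries, circles experiment 1 and squares experiment 2, and open triangles at the foot of the axis stand for libraries with 0 reads (CDHR2 in experiment 2). The order runs from MSN and EZR, both above 80 FPKM in every library, to MYO1A and CDHR2, both below 0.2 FPKM.

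The comparison of Myc-TRIM40 with control asks whether TRIM40 changes the RNA of these genes. None of the 9 genes that had enough reads to be tested passed (edgeR quasi-likelihood test with the experiment as a block, adjusted p under 0.05 over all genes, 0 of 9 genes). Over all 14868 genes tested, 0.0404% passed as higher and 0.0202% as lower, so few genes passed in this design of 2 libraries against 2. CDHR2 had too few reads to be tested. At an unadjusted p under 0.05, 1 of 9 genes was higher (CDHR5), against 3.41% of all tested genes that were higher and 1.13% that were lower. The fitted log2 fold changes of the 9 genes were between -0.12 (USH1C) and 0.71 (CDHR5), with a median of 0.14 against 0.04 for all tested genes. In experiment 1 the median log2 ratio of the 9 genes was -0.02 against 0.00 for all, and in experiment 2 it was 0.29 against 0.03.

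By direction, 3 of the 9 genes were higher with Myc-TRIM40 in both experiments (EZR, MYO1A and CDHR5), 1 was lower in both (USH1C) and 5 went opposite ways (RDX, MSN, VIL1, ESPN and PLS1). Among all tested genes these shares were 28.6%, 26.3% and 45.0%. Both Myc-TRIM40 libraries lay above both controls in normalized reads for 1 of the 9 genes (EZR) and below both for 1 (USH1C), against 11.0% and 9.67% of all tested genes. None of the 9 changed by 1.5-fold or more on the scale of FPKM + 1 in both experiments, which 0.457% of all tested genes did upwards and 0.0874% downwards. This scale understates the change of low genes, so the count says little about ESPN and MYO1A, both below 1 FPKM in every library. For 5 of the 9 genes the log2 difference between the control libraries was larger in size than the fitted change. The median size of that difference was 0.45 for the 9 genes and 0.52 for all, and the median size of the fitted change was 0.14 and 0.21.

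**Figure D2:**
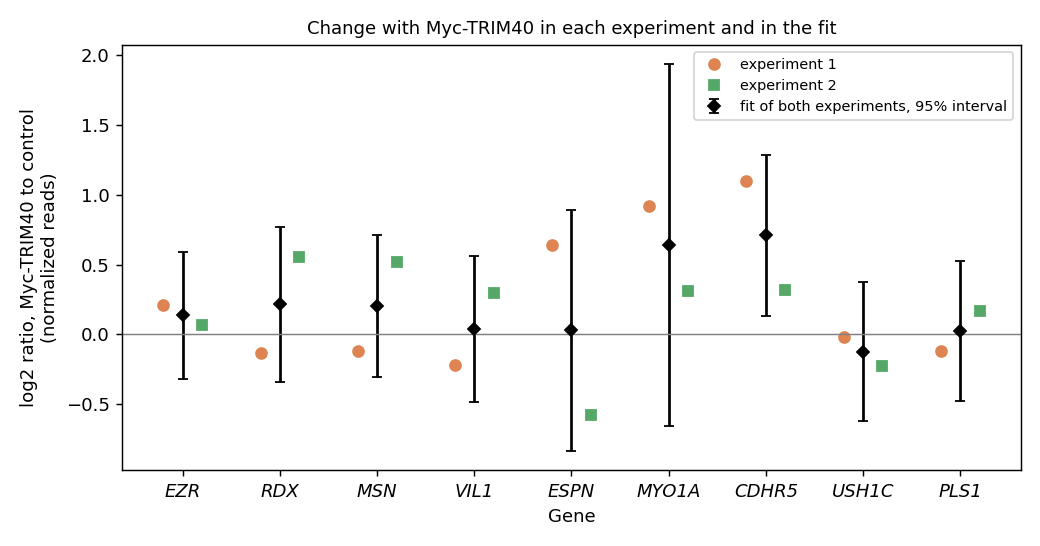
Log2 ratio of normalized reads, Myc-TRIM40 to control, for the 9 tested genes. Orange circles are experiment 1, green squares experiment 2, and black diamonds the edgeR fit of both with its 95% interval. The interval lies above 0 for CDHR5 alone (unadjusted), and for RDX, MSN, VIL1, ESPN and PLS1 the experiments lie on opposite sides of 0.

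EZR encodes ezrin and lies at chr6:159186773-159240456 (hg19). It had 25100 reads in control 1, 29760 in Myc-TRIM40 1, 26312 in control 2 and 27754 in Myc-TRIM40 2. As levels per length these were 128.4, 151.9, 121.4 and 138.2 FPKM. Both Myc-TRIM40 libraries were above both controls. The group means were 124.9 ± 4.95 FPKM for control and 145.1 ± 9.66 FPKM for Myc-TRIM40 (SD, n = 2). The fitted log2 fold change was 0.14 with a standard error of 0.20 and a 95% interval of -0.32 to 0.59 (edgeR adjusted p = 0.922), which includes 0. The ratio was 0.21 in experiment 1 and 0.06 in experiment 2 on the log2 scale of normalized reads.

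The control libraries of EZR differed by only 0.01 on the log2 scale of normalized reads, the smallest such gap among the 9 genes. The 3 tested genes whose pattern over the 4 libraries was nearest to that of EZR were BARX2, DUSP3 and NPEPL1, at distances of 0.0060, 0.0159 and 0.0252 (log2 normalized reads centred on each gene's mean). Among the ERM and brush border genes the nearest was USH1C, at a distance of 0.27, which placed it 1626th of 14867 genes. USH1C did not follow EZR in direction. It was lower with Myc-TRIM40 in both experiments (log2 ratios -0.02 and -0.23), where EZR was higher in both.

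The deposited tables divide EZR between a pair of RefSeq transcripts, NM_001111077 and NM_003379, whose outer ends on chromosome 6 are 1116 bases apart (159240456 and 159239340 on hg19). EZR is read from the minus strand, so these are the start ends of the transcripts. NM_001111077 took 73.1% of the EZR reads in control 1, 70.9% in Myc-TRIM40 1, 76.4% in control 2 and 61.6% in Myc-TRIM40 2. It was the more abundant transcript in every library, and its share was lower in the Myc-TRIM40 library of each experiment.

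The level of NM_003379 was 34.2 FPKM in control 1, 43.9 in Myc-TRIM40 1, 28.4 in control 2 and 52.7 in Myc-TRIM40 2. Both Myc-TRIM40 libraries thus exceeded both controls. At gene level 11.0% of all tested genes did so in normalized reads, and the share over all transcripts was not counted. The level of NM_001111077 was 94.2, 108.0, 93.0 and 85.5 FPKM in the same order, higher with Myc-TRIM40 in experiment 1 and lower in experiment 2. The log2 ratio of FPKM was 0.36 and 0.89 for NM_003379 in experiments 1 and 2, and 0.20 and -0.12 for NM_001111077. With the most abundant transcript alone in place of the gene, the fitted log2 fold change of EZR turned from 0.14 to -0.026. The division of reads between overlapping transcripts is an estimate of the authors' software, and the shares were not tested.

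**Figure D3:**
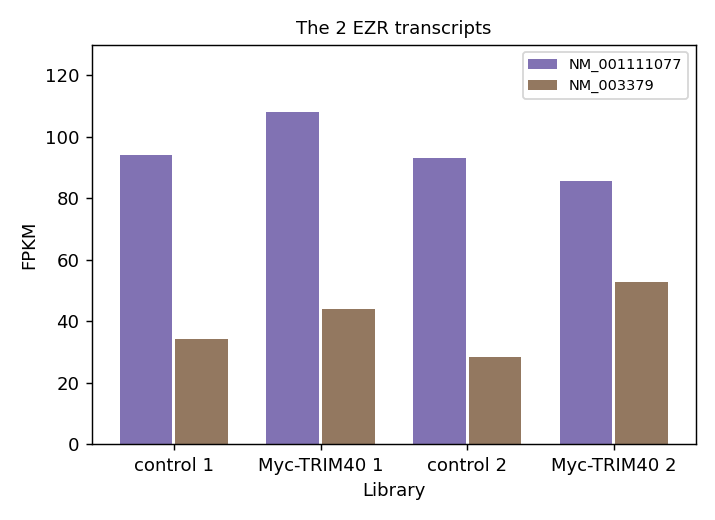
Level (FPKM) of the EZR transcripts NM_001111077 (purple) and NM_003379 (brown) in the 4 libraries. NM_003379 stands at 34.2 and 28.4 FPKM in the controls and at 43.9 and 52.7 FPKM with Myc-TRIM40, and NM_001111077 is the taller bar throughout.

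MSN encodes moesin, the ERM protein best known from leukocytes and endothelium, and lies at chrX:64887511-64961793 (hg19). It had 42131 reads in control 1, 39790 in Myc-TRIM40 1, 22732 in control 2 and 32917 in Myc-TRIM40 2, or 169.6, 159.8, 82.5 and 129.2 FPKM. Control 2 was the low library and the others lay closer together. The group means were 126.1 ± 61.6 FPKM for control and 144.5 ± 21.7 FPKM for Myc-TRIM40 (SD, n = 2), and the groups overlapped. The control libraries differed by -0.95 on the log2 scale of normalized reads (control 2 minus control 1), the second largest size of gap among the 9 genes after that of MYO1A, which had few reads. The fitted log2 fold change was 0.20 with a standard error of 0.22 and a 95% interval of -0.31 to 0.71 (edgeR adjusted p = 0.900), from -0.12 in experiment 1 and 0.52 in experiment 2.

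RDX encodes radixin and lies at chr11:110045605-110167437 (hg19). It had 1636 reads in control 1, 1534 in Myc-TRIM40 1, 2174 in control 2 and 3230 in Myc-TRIM40 2, or 5.90, 5.57, 6.98 and 11.2 FPKM. Myc-TRIM40 2 was the high library and Myc-TRIM40 1 the lowest. In the fit of both experiments the log2 fold change was 0.21 with a standard error of 0.24 and a 95% interval of -0.34 to 0.77 (edgeR adjusted p = 0.900), from -0.13 in experiment 1 and 0.56 in experiment 2.

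Of the 6 RDX transcripts in the tables, 3 had 0 reads in every library, and NM_002906 took 87.1%, 80.2%, 99.9% and 99.8% of the reads in control 1, Myc-TRIM40 1, control 2 and Myc-TRIM40 2. NM_001260494 had 208 and 298 reads in experiment 1 and 0 in both libraries of experiment 2. The assignment of RDX reads thus differed mainly by experiment, although within experiment 1 the share of NM_002906 also went from 87.1% to 80.2% with Myc-TRIM40.

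The make-up of ERM RNA showed the same dependence on the experiment. EZR was 42.2% of the summed ERM level in control 1, 47.9% in Myc-TRIM40 1, 57.6% in control 2 and 49.6% in Myc-TRIM40 2. MSN was 55.8%, 50.4%, 39.1% and 46.4%, and RDX was 1.94%, 1.76%, 3.31% and 4.03%. The ratio of MSN to EZR levels went from 1.32 to 1.05 with Myc-TRIM40 in experiment 1 and from 0.680 to 0.934 in experiment 2. Neither ezrin nor moesin RNA was the higher in every library, radixin was a minor component, and the ratio of MSN to EZR moved opposite ways in the experiments.

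**Figure D4:**
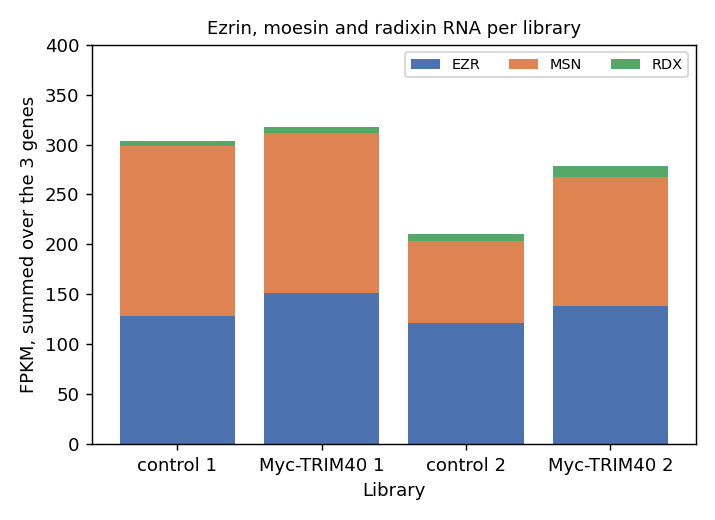
Level (FPKM) of EZR (blue), MSN (orange) and RDX (green) stacked for each library, so that bar height is the summed ERM level. The sum was 304.0 FPKM in control 1, 317.3 in Myc-TRIM40 1, 210.9 in control 2 and 278.6 in Myc-TRIM40 2, with control 2 low through its MSN part.

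Among the filament bundlers, VIL1 encodes villin, which bundles, caps and at high calcium severs actin, and lies at chr2:219283838-219314248 (hg19). It had 13516 reads in control 1, 11937 in Myc-TRIM40 1, 9389 in control 2 and 11609 in Myc-TRIM40 2, or 78.9, 69.5, 49.4 and 66.0 FPKM. The Myc-TRIM40 libraries lay between the controls. Its fitted log2 fold change was 0.04 with a standard error of 0.23 and a 95% interval of -0.49 to 0.56 (edgeR adjusted p = 0.985), from -0.22 in experiment 1 and 0.29 in experiment 2, and the control libraries differed by -0.59.

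PLS1, the intestinal plastin that cross-links filaments in the microvillar core, lies at chr3:142315229-142432505 (hg19). It had 6684 reads in control 1, 6307 in Myc-TRIM40 1, 7076 in control 2 and 8030 in Myc-TRIM40 2, or 28.8, 27.1, 27.5 and 33.8 FPKM. Myc-TRIM40 2 was the highest and Myc-TRIM40 1 the lowest. In the fit, PLS1 had a log2 fold change of 0.02 with a standard error of 0.22 and a 95% interval of -0.48 to 0.53 (edgeR adjusted p = 0.994), from -0.12 in experiment 1 and 0.17 in experiment 2.

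Of the other plastins, PLS3, which is widely expressed and whose reads overlap those of the antisense gene PLS3-AS1, was at 38.2, 37.0, 41.2 and 49.1 FPKM in control 1, Myc-TRIM40 1, control 2 and Myc-TRIM40 2. The leukocyte plastin LCP1 was at 0, 0.0252, 0.0152 and 0 FPKM. PLS3 was thus above PLS1 in every library and LCP1 was at or near 0. NM_001145319 took 74.1% and 74.9% of the PLS1 reads in experiment 1 and 97.0% and 98.7% in experiment 2, for control and Myc-TRIM40. This was another transcript assignment that differed mainly by experiment, with a slightly higher share with Myc-TRIM40 in each. PLS1 transcript NM_001172312 had 228 reads in control 1, 4 in control 2 and 0 in both Myc-TRIM40 libraries. These assignments were not tested.

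ESPN encodes espin, a bundler that can lengthen microvilli, and lies at chr1:6484848-6521004 (hg19). It had 108 reads in control 1, 174 in Myc-TRIM40 1, 173 in control 2 and 116 in Myc-TRIM40 2, or 0.485, 0.785, 0.705 and 0.509 FPKM. The ratio of normalized reads was 1.57 in experiment 1 (95% counting interval 1.23 to 2.01) and 0.664 in experiment 2 (0.521 to 0.846). The experiments went opposite ways by more than counting error, which is the only error these intervals cover. The experiments together gave ESPN a fitted log2 fold change of 0.03 with a standard error of 0.38 and a 95% interval of -0.84 to 0.89 (edgeR adjusted p = 0.996).

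MYO1A encodes brush border myosin I, which tethers the core bundle to the membrane, and lies at chr12:57422301-57444549 (hg19). It had 14 reads in control 1, 29 in Myc-TRIM40 1, 34 in control 2 and 43 in Myc-TRIM40 2, or 0.0610, 0.125, 0.134 and 0.180 FPKM. It was higher with Myc-TRIM40 within each experiment, but control 2 was above Myc-TRIM40 1, so the groups overlapped. The ratio of normalized reads was 2.02 in experiment 1 (95% counting interval 1.03 to 4.13) and 1.25 in experiment 2 (0.781 to 2.03). MYO1A had a fitted log2 fold change of 0.64 with a standard error of 0.57 and a 95% interval of -0.65 to 1.94 (edgeR adjusted p = 0.888), the widest interval of the 9 genes. Centring the FPKM + 1 ratios on the median gene turned the direction in experiment 2 from 0.06 to -0.05. That median came from genes with a mean of at least 1 FPKM. The FPKM + 1 scale understates the change of so low a gene as MYO1A, so the turn says little about direction.

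Of the tip-link complex, CDHR5 encodes a protocadherin of the microvillus tip and lies at chr11:616565-625067 (hg19). It had 1310 reads in control 1, 2886 in Myc-TRIM40 1, 1000 in control 2 and 1256 in Myc-TRIM40 2, or 6.15, 13.6, 4.42 and 5.90 FPKM. It was higher with Myc-TRIM40 within each experiment, and Myc-TRIM40 1 was far above the rest, but Myc-TRIM40 2 stayed below control 1 and the groups overlapped. The group means were 5.29 ± 1.22 FPKM for control and 9.77 ± 5.47 FPKM for Myc-TRIM40 (SD, n = 2). The fitted log2 fold change was 0.71 with a standard error of 0.25 and a 95% interval of 0.13 to 1.29, an edgeR p of 0.0214 before adjustment and an adjusted p of 0.888. This was the largest fitted change of the 9 genes, and it came mostly from experiment 1, where the log2 ratio was 1.10 against 0.32 in experiment 2.

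The 3 CDHR5 transcripts shared the difference in experiment 1. NM_021924 went from 677 reads in control 1 to 1624 in Myc-TRIM40 1, NM_001171968 from 471 to 778 and NM_031264 from 162 to 484. In experiment 2 they went from 405 to 582, from 242 to 345 and from 353 to 329. NM_021924 had the most reads in each library, and 1 of the 3 was lower with Myc-TRIM40 in experiment 2.

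CDHR2, the cadherin partner of CDHR5, lies at chr5:175969512-176022769 (hg19) and had 4 reads in control 1, 22 in Myc-TRIM40 1 and 0 in both libraries of experiment 2. In experiment 1 the ratio of normalized reads was 5.35 with a 95% counting interval of 1.82 to 21.4. In experiment 2 a count of 0 allows up to 3 reads, or 0.0445 CPM (reads scaled to the library total alone) in control 2 and 0.0479 CPM in Myc-TRIM40 2, so no difference was detectable at this depth.

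USH1C encodes harmonin, the scaffold under the tip-link cadherins, and lies at chr11:17515442-17565963 (hg19). It had 7646 reads in control 1, 7737 in Myc-TRIM40 1, 8583 in control 2 and 7392 in Myc-TRIM40 2. The levels of 54.2, 54.8, 55.2 and 51.3 FPKM spanned the narrowest range, relative to the mean, of the 10 genes. In normalized reads both Myc-TRIM40 libraries were below both controls, but in FPKM the groups overlapped. For USH1C the fitted log2 fold change was -0.12 with a standard error of 0.22 and a 95% interval of -0.62 to 0.37 (edgeR adjusted p = 0.934). The direction depended on the scale, since the log2 ratio of normalized reads was -0.02 in experiment 1 and -0.23 in experiment 2, that of FPKM + 1 was 0.02 and -0.10, and that of TPM (FPKM rescaled to 1 sum per library) was 0.05 and 0.13. Over the 11801 genes with a mean of at least 1 FPKM, the median gene in experiment 2 stood at 0.10 on the FPKM + 1 scale and at 0.33 in TPM. Among the 4 USH1C transcripts, NM_005709 took 69.3% of the reads in control 1, 63.6% in Myc-TRIM40 1, 73.0% in control 2 and 69.3% in Myc-TRIM40 2, and so was the main form throughout.

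Transcript length moved with the ratios of experiment 2, and so with control 2. In experiment 2 the median log2 ratio of Myc-TRIM40 to control was -0.54 for genes under 1 kb, -0.35 from 1 to 2 kb, -0.08 from 2 to 3 kb, 0.11 from 3 to 4 kb, 0.30 from 4 to 6 kb and 0.54 over 6 kb. In experiment 1 the same medians were between -0.05 and 0.03. Genes within 10% of the length of MSN (3970 bases, 1566 genes) had a median of 0.20 in experiment 2, where MSN had 0.52, and those within 10% of the length of RDX (4463 bases, 1431 genes) had 0.26, where RDX had 0.56. MSN and RDX were therefore above genes of their own length in experiment 2, while EZR (0.06 against 0.06) and PLS1 (0.17 against 0.14) were close to theirs.

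The trend on length was also taken out of each library, a step added after the data were seen. The fitted log2 fold change was then 0.08 for EZR, 0.06 for RDX, 0.08 for MSN, 0.02 for VIL1 and -0.06 for ESPN. It was 0.54 for MYO1A, 0.63 for CDHR5, -0.09 for USH1C and -0.08 for PLS1. CDHR5 kept the largest value and none of the 9 passed. The sizes for RDX and MSN were less than a log2 change of 0.1, fitted over experiments that went opposite ways before the removal. ESPN and PLS1 turned sign. What set the length trend of control 2 was not tested.

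**Figure D5:**
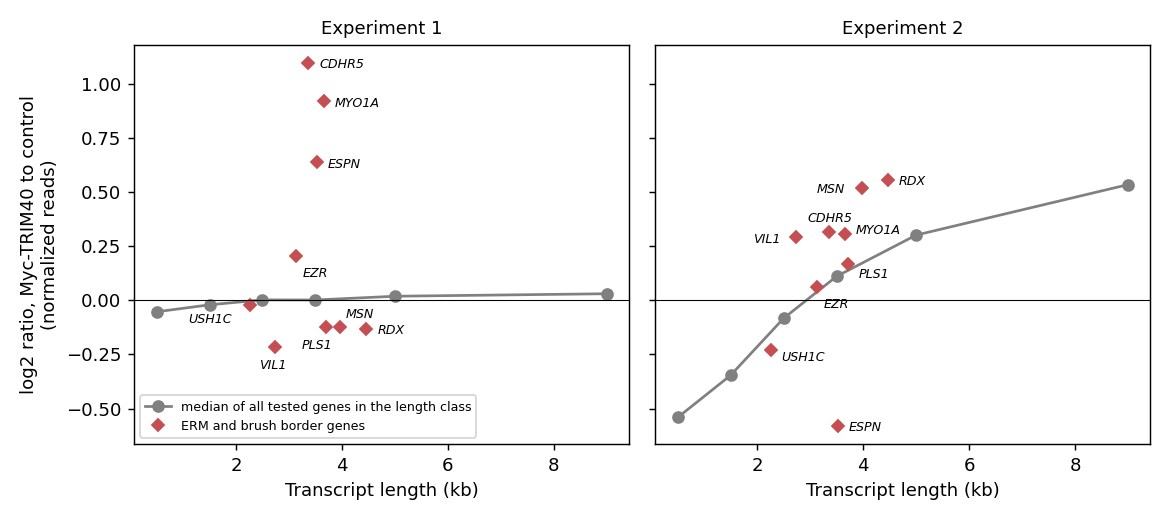
Log2 ratio of normalized reads, Myc-TRIM40 to control, against transcript length in kilobases, for experiment 1 (left) and experiment 2 (right). Grey points joined by a line are the medians of all tested genes in 6 length classes, and red diamonds the 9 ERM and brush border genes. The grey line is flat in experiment 1 (-0.05 to 0.03) and climbs from -0.54 to 0.54 in experiment 2, with CDHR5, MYO1A, VIL1, MSN and RDX above it in experiment 2 and ESPN and USH1C below.

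The 17 genes listed as regulators and partners of ERM proteins were all tested, and 0 passed with an adjusted p under 0.05 in edgeR. At an unadjusted p under 0.05, 2 were higher and 0 lower, against 3.41% and 1.13% of all tested genes. By direction 6 were higher in both experiments, 2 lower in both and 9 opposite, against 28.6%, 26.3% and 45.0% of all tested genes. The median log2 fold change was 0.17 (0.03 in experiment 1 and 0.28 in experiment 2), or -0.05 with the length trend removed. ROCK1, the kinase that the study places upstream of ERM phosphorylation, was at 9.90 FPKM in control 1, 9.88 in Myc-TRIM40 1, 7.07 in control 2 and 11.0 in Myc-TRIM40 2. Its fitted log2 fold change was 0.24 with a standard error of 0.23 and a 95% interval of -0.29 to 0.76 (edgeR adjusted p = 0.892), from -0.04 in experiment 1 and 0.51 in experiment 2. ROCK2, its paralogue, had 0.25 (-0.03 and 0.53). For comparison, genes over 6 kb had a median log2 ratio of 0.03 in experiment 1 and 0.54 in experiment 2. Neither kinase was set against genes of its own length.

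NF2, the ERM-related tumour suppressor merlin, had a fitted log2 fold change of 0.02 (-0.01 in experiment 1 and 0.05 in experiment 2), and SLC9A3R1, the scaffold that ties ezrin to membrane proteins, had -0.01 (0.03 and -0.05). The largest values among genes higher in both experiments were those of ICAM1, an adhesion receptor whose tail binds ERM proteins, and CLIC5, a partner of ezrin in microvilli. ICAM1 had 0.83 (1.15 in experiment 1 and 0.50 in experiment 2) and CLIC5 0.76 (0.63 and 0.88). For both, the Myc-TRIM40 libraries lay above the controls in normalized reads, and the edgeR adjusted p was 0.888.

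Of 24 other microvillus genes, 21 were tested and 0 passed. At an unadjusted p under 0.05, 1 was higher (MYO7B), against 3.41% of all tested genes. MYO7B, the motor that carries the tip-link complex, had a log2 fold change of 0.59 and ratios of 0.59 and 0.58. Its mean was below 1 FPKM, and control 1 lay above Myc-TRIM40 2, so the groups overlapped. For comparison, the median log2 ratio of genes over 6 kb was 0.03 in experiment 1 and 0.54 in experiment 2. MYO7B was not set against genes of its own length. Of the 21 tested genes, 12 were higher in both experiments, 0 lower in both and 9 opposite, against 28.6%, 26.3% and 45.0% of all tested genes. The median was 0.24 (0.15 in experiment 1 and 0.21 in experiment 2), or 0.09 with the length trend removed. The most abundant were relatives of the actin-capping protein EPS8, EPS8L2 at 0.06 (-0.08 and 0.20) and EPS8L1 at 0.05 (0.31 and -0.21). The largest value in this list, 1.18, belonged to the villin relative AVIL, whose reads overlap those of TSFM and which was below 0.5 FPKM in every library. It rested on experiment 1, where the log2 ratio was 1.97 against 0.21 in experiment 2. PLS3 had a log2 fold change of 0.01 (-0.08 and 0.11).

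Of 19 enzymes and transporters of the brush border membrane, only 7 had enough reads to be tested, and 7 others had at most 3 reads in every library. None of the 7 tested passed (0 at an adjusted p under 0.05 in edgeR, 1 higher at an unadjusted p under 0.05, against 3.41% of all tested genes). By direction 6 of 7 were higher in both experiments, 0 lower in both and 1 opposite, against 28.6%, 26.3% and 45.0% of all tested genes. For 5 of the 7 both Myc-TRIM40 libraries lay above both controls, against 11.0% of all tested genes. In this list only DPP4 and SLC5A1 had a mean of at least 1 FPKM, and the others were below 0.4 FPKM in every library. The list was not set against other genes of such low level. The median log2 fold change was 0.46 (0.40 in experiment 1 and 0.24 in experiment 2), or 0.34 with the length trend removed, and over all tested genes it was 0.04. DPP4, the peptidase CD26, was the most abundant, at 13.3 FPKM in control 1, 18.0 in Myc-TRIM40 1, 11.6 in control 2 and 18.1 in Myc-TRIM40 2. Its fitted log2 fold change was 0.46 with a standard error of 0.21 and a 95% interval of -0.02 to 0.94 (edgeR adjusted p = 0.888), from 0.40 in experiment 1 and 0.51 in experiment 2. It also stands in a list that the study chose on these samples, so its direction is not independent evidence. The glucose transporter SLC5A1 had 0.26 (0.35 and 0.17). The peptidases ENPEP and ANPEP, both below 0.4 FPKM in every library, had 1.24 (1.28 and 1.08) and 0.98 (1.73 and 0.15), and the value of ANPEP rested on experiment 1.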

How the data were processed

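The 4 libraries of HT-29 RNA, 2 with a control vector and 2 with Myc-TRIM40, were grouped by the sample labels. Whole-number estimated counts for each RefSeq transcript were deposited without normalization. The authors also deposited FPKM for both experiments and TPM for experiment 2. For experiment 1 the TPM was computed here from FPKM. The other deposited values used were transcript lengths and positions. The submitters' processing notes name HISAT2 2.1.0, StringTie 1.3.4d and hg19, and the role of each tool, the read length and the strand setting are not given in the sources used here. The library kit was a stranded mRNA kit. Since reads were divided among overlapping transcripts by software, transcripts were summed per gene. None of the 10 genes overlaps another gene with 10 or more reads in some library.

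Genes were tested with edgeR 4.0.16 (quasi-likelihood test, TMM, filterByExpr, R 4.3.3) on 14868 genes, with the experiment as a block and Benjamini-Hochberg adjustment over all of them. Standard errors were derived from the fitted change and its F value. The block follows the replicate numbers of the labels and the layout of the files, with the paired libraries of 1 independent experiment in each. Same-numbered libraries deviated together from their condition means (correlation 0.45 across 14868 genes). Nothing in the labels says that the experiments began from separate cell lines. The p-values therefore measure only the spread that these libraries leave once the experiment is fitted. Each gene had 1 residual degree of freedom, against a median of 7.44 that the fit shares across genes. The spread used for a gene thus came largely from other genes. Each condition had 2 libraries, and since the smallest two-sided p of an exact permutation test at this size is 0.333, none was used. Counting intervals are conditional binomial 95% intervals of a ratio of reads. They and the limit of 3 reads cover counting error only. Ratios on the scale of log2(FPKM + 1) understate the change of low genes. The test was checked on simulated data.

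The alternatives were no block, DESeq2 1.42.0, upper-quartile normalization, limma 3.58.1 on log2(FPKM + 1), all genes kept without a filter, the most abundant transcript only, each experiment left out, a pseudocount of 0.1, TPM and median-centred ratios. Removal of a trend on transcript length was added after the data were seen. The 10 genes, the 3 lists of related genes and the tests were chosen with earlier results of these data known. Genes named beside the 10 were, from each list, those that passed the test, the 2 with the highest mean FPKM, the 2 with the largest rise and the 2 with the largest fall among genes that moved one way in both experiments, together with ROCK1, ROCK2, NF2, SLC9A3R1, DPP4, PLS3, LCP1, TRIM40 and the 3 genes nearest to EZR in pattern. MYO7B was named after its values were seen. Some results that this rule covers are not reported here. Figures and summaries used Python 3.11.15 with numpy 2.4.6, pandas 2.3.3 and scipy 1.17.1.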

Additional observations from a re-analysis of the deposited data

How the results depend on the processing

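None of the tested genes among the 10 passed under any of the 7 alternative fits, and of 63 alternative fits of single genes 59 kept their direction. The 4 that reversed were EZR with the most abundant transcript only (-0.026), PLS1 with DESeq2 (-0.0026) and with the length trend removed (-0.080), and ESPN with the length trend removed (-0.062). With 1 experiment left out, values with no test, RDX ranged from -0.13 to 0.56, MSN from -0.12 to 0.52, VIL1 from -0.22 to 0.29, ESPN from -0.58 to 0.64 and PLS1 from -0.12 to 0.17, each changing sign.

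Without the replicate block, 0 of the 9 genes passed, and the calls over all genes went from 6 higher and 3 lower to 0 and 0 (edgeR, 128 and 25 at an unadjusted p under 0.05). The counts were 45 and 9 with DESeq2, 3 and 0 with limma (587 and 134 unadjusted), and 0 and 0 both with no filter (343 and 104) and with the most abundant transcript only (222 and 113). With the length trend removed they were 1 and 0 (333 and 285). The cause was not tested. With no filter CDHR2 was tested as well (log2 fold change 2.24, edgeR adjusted p = 0.804). CDHR5 had a log2 fold change between 0.63 and 0.88 and an adjusted p between 0.804 and 1.000 over the alternative fits. With 1 experiment left out, values with no test, it was 0.32 without experiment 1 and 1.10 without experiment 2. MYO1A and CDHR2 had at most 43 and 22 reads in a library, so their ratios have wide counting intervals.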
